A study of Homo sapiens with 4 samples.

Results

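The genes described here are 49 genes of DNA replication and S phase, the part of the cell cycle in which the genome is copied. They were named by list and not by a cutoff on a measured value, though earlier results of these data were known when the list was chosen. It holds the MCM helicase, the origin recognition complex (ORC), licensing and helicase activation factors, GINS, the RFC clamp loader with PCNA, the replicative polymerases with primase, the lagging strand enzymes, RPA, nucleotide synthesis enzymes, cyclin E, chromatin assembly factor 1 and fork protection proteins. All 49 had rows in both count tables, among 26827 gene names that the tables share. Rows carrying the name of one of these genes numbered 4781 among the Input regions and 7378 among the J2 regions.

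The cells were NCI-H1944, an established human lung adenocarcinoma line described as wild type. They were exposed for 48 h to DMSO or to 100 nM BAY-1217389, which blocks MPS1, a kinase of the mitotic checkpoint (MPS1i), and then kept for 24 h after the compound had been washed out. RNA of 10% of each lysate stands for the whole transcriptome (Input), and the other part was precipitated with J2, an antibody against double-stranded RNA. Each of the 4 combinations of treatment and fraction held 1 library, so that every difference below is one between libraries, with no replicate check and no p-value.

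Replication starts at origins, which ORC marks and on which CDC6 and CDT1 load the ring-shaped MCM helicase before S phase. CDC45 and GINS then bind MCM to make the active helicase, DNA polymerase alpha with primase lays down short starts, and polymerases delta and epsilon extend them on the PCNA clamp that RFC loads. Many of these genes are transcribed in late G1 and S phase under E2F transcription factors, which RB family proteins restrain in resting cells. In bulk RNA, fewer cells in S phase and less RNA per cell cannot be told apart.

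The deposited values were read counts in stranded regions, for these genes mostly in introns: of the reads assigned below to the gene on their own strand, introns held 96.4% (DMSO) and 91.1% (MPS1i) in Input and 88.2% and 78.4% in J2. The values therefore follow mainly unspliced and other non-exonic RNA and are no measure of mature messenger RNA. Regions at transcript ends held 13.0% of the own-strand MPS1i J2 reads and those at promoters 4.71%. Introns held only 2.62% of the own-strand J2 reads of CCNE2 and 14.5% of those of PCNA. The part of mature RNA in such regions was not tested. Summed counts per library lay between 4844956 (MPS1i Input) and 9793355 (DMSO J2), and mitochondrial reads took 24.3% and 20.2% of the Input libraries. With the deeper library of each pair thinned to the summed count of the other, mitochondrial reads included, 826681 Input regions had a read in DMSO and 484849 in MPS1i, and 1028696 and 1176736 J2 regions did. Of 10 lung epithelium markers, 4 reached the count minimum on their own strand and none of them was called, NKX2-1 had no read in any library on its own strand, and none of 8 leukocyte markers reached the minimum there. Of 8 fibroblast markers 1 did, FAP, which was higher with MPS1i (15 and 154 own-strand reads in Input, 23 and 260 in J2), while COL1A1 had no own-strand read in any library. By label, J2 calls higher with MPS1i were 4 of 7 measured lung epithelium markers and 3 of 3 fibroblast markers (FAP, DCN and LUM). So were 2 of 2 leukocyte markers (CD14 with 34 and 81 reads, LYZ with 9 and 57), and none of these 3 lists was lower. Of 4 endothelium markers 2 were measured, KDR higher (12 and 110 reads) and PECAM1 lower (2914 and 682). Over all genes measured by label in J2, 25.5% were higher and 11.9% lower. The part of such cells or RNA in the results was not tested.

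Each gene was summed in 2 ways. The nearest-gene sum took every region whose deposited label names the gene, wherever it lay and on either strand. The own-strand sum took the regions that overlapped that gene and no other on the same strand, in GENCODE release 29 on GRCh38. It was chosen with the data in view, because the labels of several of these genes collected reads of neighbouring genes. A call needed at least 50 counts over the pair of libraries, a difference of at least 2-fold in CPM, the count scaled to the library's summed count, and an exact 95% interval of that ratio without 1. That interval covers counting error only, and "rose" and "fell" below are used only of such calls. Log2 ratios carry a pseudocount of 0.5 counts per library.

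In Input, 14 of the 38 replication genes that could be measured on their own strand fell with MPS1i and 1 rose, where 16.8% of all 10180 measured genes fell and 12.8% rose. In J2, 20 of 40 fell and 0 rose, where 19.6% of all 11202 measured genes fell and 15.9% rose. The median log2 ratio of the replication genes was -0.76 in Input and -0.99 in J2, against -0.22 and -0.19 over all measured genes. Of those measured, 34 of 38 had a log2 ratio below 0 in Input and 35 of 40 in J2. Most of all measured genes lay below 0 as well, as their medians show. By the nearest-gene label, 14 of 45 fell and 1 rose in Input (background 9.07% lower and 20.2% higher), and 12 of 45 fell and 2 rose in J2 (background 11.9% lower and 25.5% higher), with medians of -0.56 and -0.71 beside 0.08 and 0.16 over all genes. Counts were scaled to the summed counts of each library. With TMM factors, which moved the J2 median of all genes by -0.37 (label) and -0.12 (own strand), 23 of 45 fell by label (background 21.9%) and 24 of 40 on their own strand (background 23.9%). Of all J2 calls by label, 68.2% were higher as scaled here, 46.8% with TMM and 43.3% with DESeq2 factors. On the own strand these shares were 44.9%, 37.3% and 35.0%. The median of the replication genes stayed below 0 under each scaling in both tables. That sign alone does not set them apart, since the own-strand medians of all genes were below 0 too. No member was called in opposite directions in Input and J2 by either sum. So few members rose that such calls had little room to occur, and their absence is no sign of agreement. The 41 genes measured in either table on their own strand exclude 8 of the 49 (MCM7, CDT1, GINS3, POLA2, PRIM1, RPA3, RRM2 and CCNE1), which stayed below 50 counts in both pairs.

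**Figure D1:**
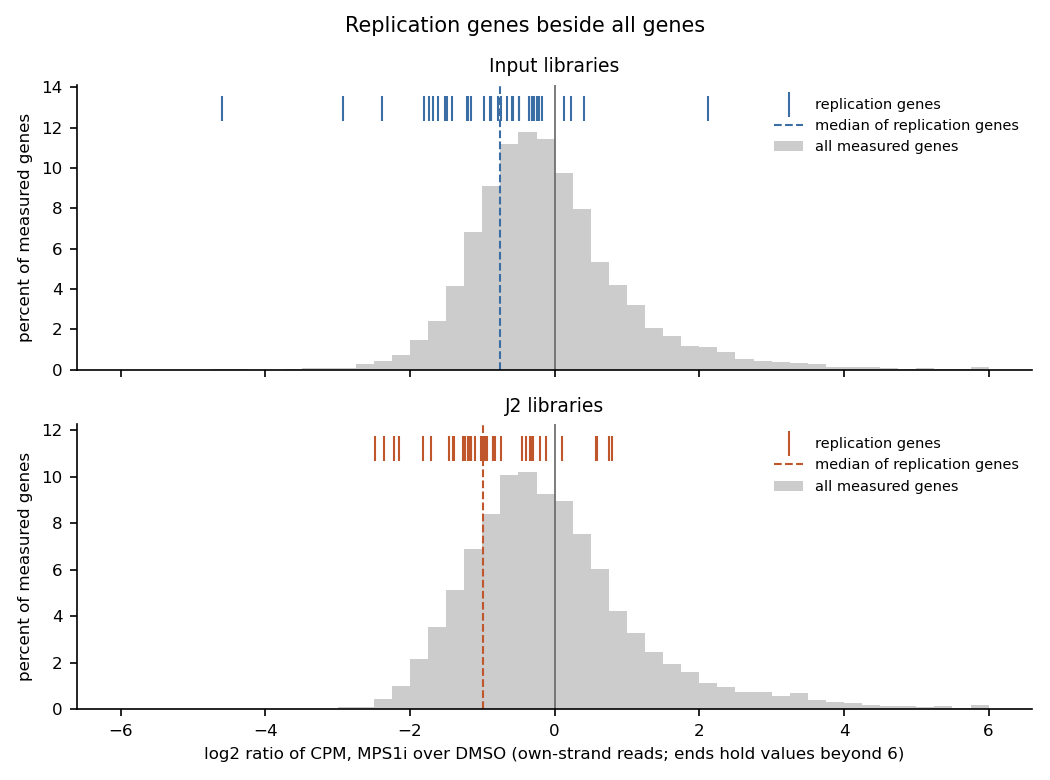
Log2 ratios of MPS1i over DMSO for own-strand reads, in the Input libraries (top) and the J2 libraries (bottom). Grey bars give the percent of all measured genes per 0.25 log2 units, coloured ticks are the replication genes, and the dashed line is their median, at -0.76 in Input and -0.99 in J2, to the left of most of the grey distribution.

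On their own strand, 10 of the genes fell in both tables: MCM2, MCM6, CDC45, POLE, POLE2, LIG1, RPA2, RRM1, CLSPN and WDHD1. They made up 71.4% of the genes that fell in Input and 50% of those that fell in J2, where over all genes the shared genes made up 53.5% and 41.6%. By the nearest-gene label, 5 genes fell in both (CDC45, POLE, POLE2, RRM2 and WDHD1). That is 35.7% of the Input list and 41.7% of the J2 list, beside 47.8% and 34.0% over all genes. The rest of the own-strand list did not fall in both by label. There MCM2, MCM6, RRM1 and CLSPN fell in Input only, LIG1 fell in J2 only, and RPA2 was called in neither table. CDC45, the factor that joins MCM and GINS in the active helicase (chr22:19479459-19520612, plus strand), had 208 reads in DMSO Input and 6 in MPS1i Input, a log2 ratio of -4.61 with an interval of -6.18 to -3.57. In J2 it had 280 and 37 reads (-2.35, -2.91 to -1.87). The reads of CDC45 lay in 54 Input regions in DMSO and 2 in MPS1i, and in 61 and 21 J2 regions, and no single region held more than 14.0% of them. A region in intron 9 (chr22:19501865-19502316) held 36 J2 reads with DMSO and none with MPS1i, at least 8.21-fold lower against a floor of 3 counts per library. WDHD1, which couples the helicase to polymerase alpha (chr14:54938950-55027105, minus strand), had 357 and 77 reads in Input (-1.81, -2.19 to -1.46) and 939 and 114 in J2 (-2.49, -2.79 to -2.21). Its 2 most-read J2 regions, in introns 21 and 15, had 51 and 8 and 45 and 7 reads. For both genes the MPS1i libraries were far below the DMSO libraries in Input and in J2 alike.

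**Figure D2:**
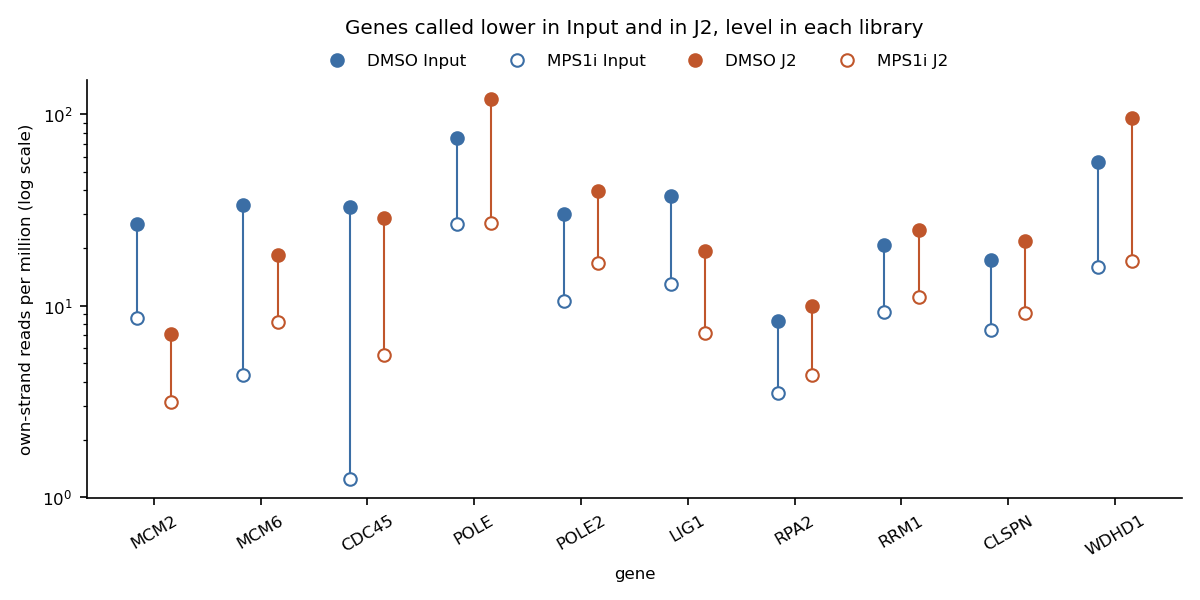
Own-strand CPM, on a log axis, of the 10 genes called lower in both tables. Filled circles are DMSO and open circles MPS1i, blue for Input and orange for J2; a line joins the 2 libraries of a pair, and every open circle lies below its filled one, farthest for CDC45 in Input (208 and 6 reads).

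RefSeq promoter windows (GRCh38.p14, 250 bases before to 50 after the start of transcription) were at hand for 42 of the 49 genes, in 51 windows. The letters of the E2F binding motif searched were TTTGGCGC, TTTCCCGC, TTTCGCGC and TTTGCCGC, on both strands. One of them stood in 19 of the 51 windows, of 19 genes (37.3%), and in 3.31% of all 35116 RefSeq windows of that length. Of the 24 genes that fell in Input or J2, 21 had a window and 8 held such letters. Their sites are shown so that the letters can be compared between genes called lower. On their own strand MCM3 fell in Input only and POLA1 in J2 only, and the other 6 fell in both. Each line gives 30 bases, 5' to 3' on the strand of the gene, with the matching letters in capitals and overlapping matches joined.
MCM2 (chr3:127598404-127598433, plus): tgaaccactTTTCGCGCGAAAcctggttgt
MCM3 (chr6:52284728-52284757, minus): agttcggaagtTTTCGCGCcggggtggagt
MCM6 (chr2:135876575-135876604, minus): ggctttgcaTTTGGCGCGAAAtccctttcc
MCM6 (chr2:135876513-135876542, minus): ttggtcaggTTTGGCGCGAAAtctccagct
POLA1 (chrX:24693770-24693799, plus): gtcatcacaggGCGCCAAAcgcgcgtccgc
POLE (chr12:132687342-132687371, minus): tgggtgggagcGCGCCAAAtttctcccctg
POLE2 (chr14:49688201-49688230, minus): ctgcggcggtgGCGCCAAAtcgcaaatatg
LIG1 (chr19:48170440-48170469, minus): acttcacccctTTTCCCGCcctcctcccat
CLSPN (chr1:35769965-35769994, minus): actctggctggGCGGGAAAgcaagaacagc

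MCM6 carried the motif in both orientations at a pair of places, starting 152 and 90 bases before the start of transcription, and MCM2 carried it 3 bases into the transcript. MCM3 held another match 174 bases upstream that is not shown. Among measured genes with a window and no lower call, 7 of 14 held a match (ORC3, CDC6, GINS1, GINS2, RFC3, PCNA and TYMS), against 38.1% of those with a lower call. Among those lower in Input and J2 alike, 6 of 9 held one. CDC45 and WDHD1, whose J2 ratios were the lowest of the 40 genes measured there, had none of these letters in their windows. The sequence CCAAT stood in 29 of the 51 windows (56.9%, against 34.6% of all) and TTTGAA, the core of the CHR element of mitotic genes, in 1 of 51 (15.2% of all), both searched on both strands. These are matches of letters and no measure of binding.

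Among the MCM genes, which encode the subunits of the helicase ring, 3 of 5 measured fell in Input (MCM2, MCM3 and MCM6) and 3 of 5 fell in J2 (MCM2, MCM5 and MCM6). MCM2 (chr3:127598223-127622436, plus strand) had 170 and 42 reads in Input (DMSO first here and below; -1.61, -2.14 to -1.12) and 70 and 21 in J2 (-1.16, -1.97 to -0.47). MCM6 (chr2:135839626-135876426, minus strand) had 215 and 21 reads in Input (-2.93, -3.68 to -2.31) but 181 and 55 in J2 (-1.16, -1.63 to -0.73). MCM3 fell in Input from 171 to 40 reads (-1.69) while its J2 reads were 58 and 59, a log2 ratio of 0.57 (0.03 to 1.12). MCM5 was called in J2 only, with 391 and 177 reads in Input (-0.74, -1.01 to -0.49) and 603 and 88 in J2 (-2.22, -2.57 to -1.90). One region in intron 5 of MCM5 held 51.1% of its Input reads with 168 and 122, and a different region, in intron 6 (chr22:35410008-35410308), held 35.6% of its J2 reads with 220 and 26. Without those regions MCM5 kept 223 and 55 reads in Input and 383 and 62 in J2, which met the rule for a lower call in both tables. MCM4 was not called (-0.35 in Input, -0.30 in J2), and 79.6% of its J2 reads came from 1 region of 129 bp in intron 3.

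**Figure D3:**
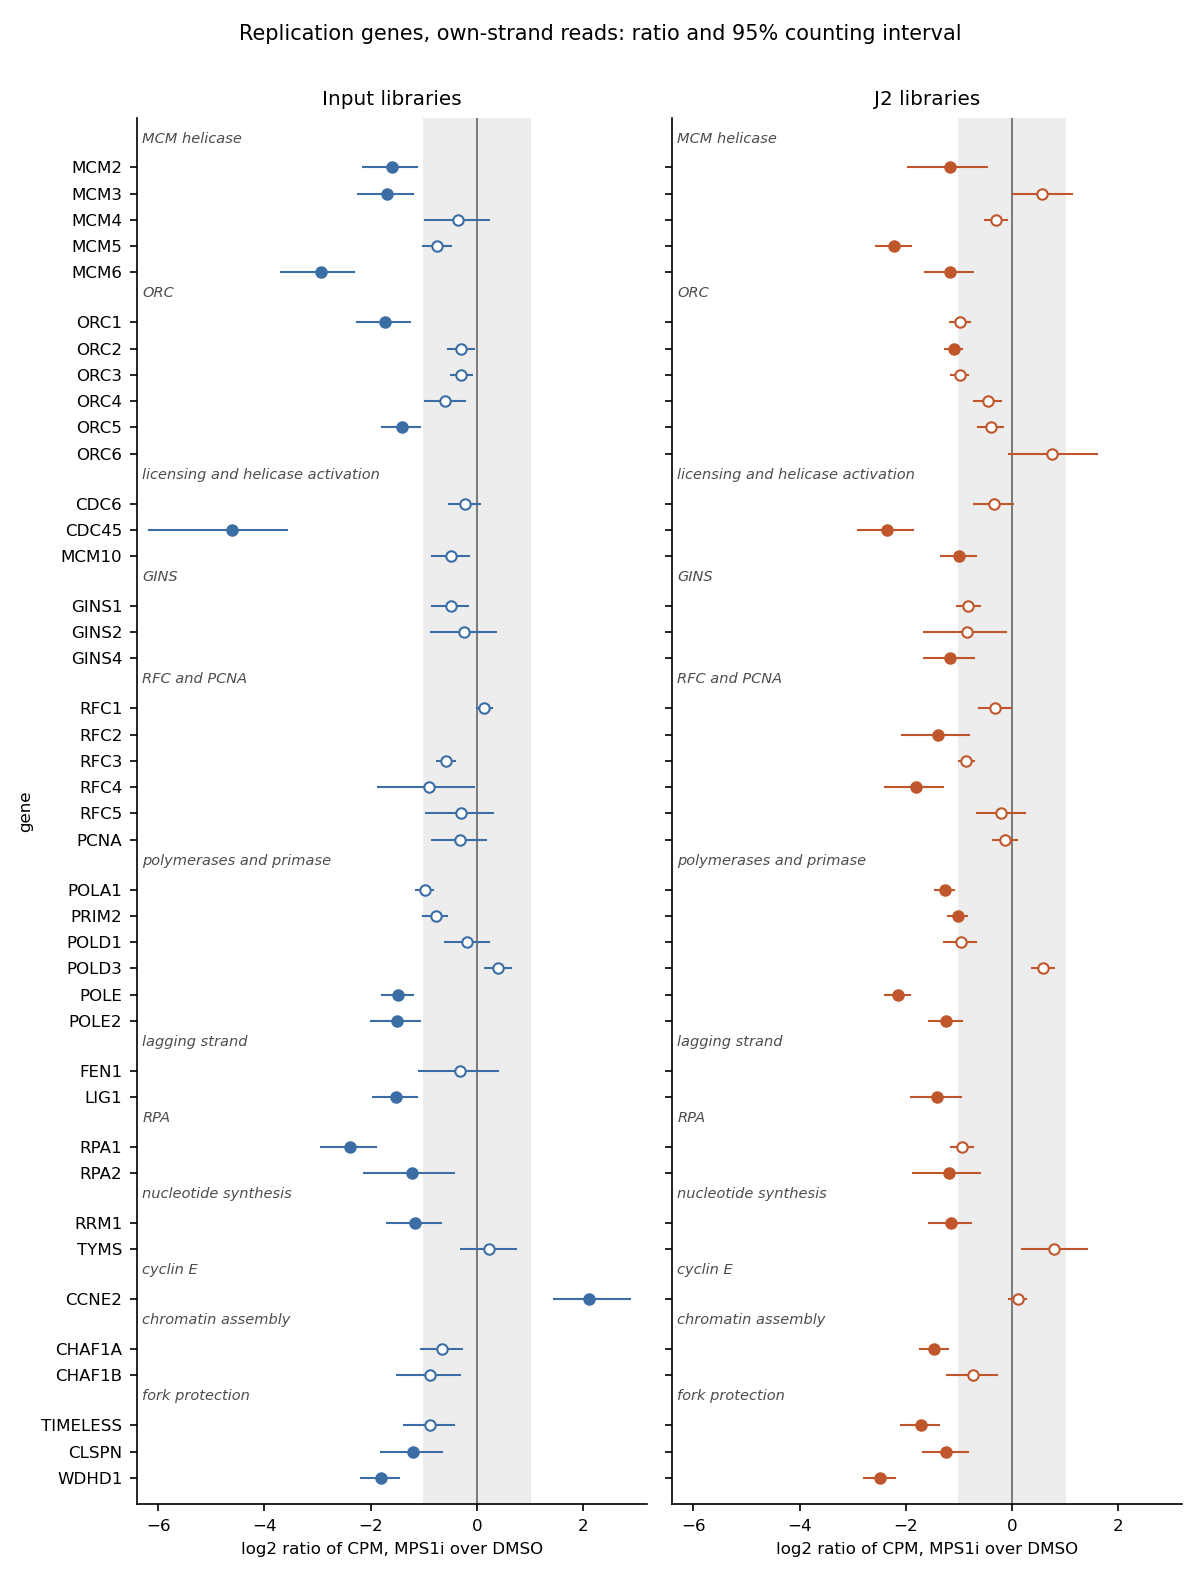
Log2 ratio of CPM, MPS1i over DMSO, of the replication genes measured on their own strand, by complex, in Input (left) and J2 (right). Filled points are called, open points are not, bars are exact 95% counting intervals, and the grey band marks ratios under 2-fold; most points lie left of 0, with CDC45 in Input at -4.61 and CCNE2 in Input at 2.12 as the ends.

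Of the ORC genes, whose products mark origins, ORC1 fell in Input from 194 to 44 reads (-1.73, -2.25 to -1.26) and ORC5 from 311 to 88 (-1.42, -1.78 to -1.08). ORC2 fell in J2, from 1332 to 425 reads (-1.10, -1.26 to -0.94). ORC1 in J2 had 862 and 299 reads and missed the 2-fold threshold at -0.98, as did ORC3 with 1383 and 477 (-0.99). A region at the end of ORC1 that carries L1 and Alu sequence held 66.5% of its J2 reads, and without it 321 and 68 reads were left. ORC4 was not called (-0.59 in Input, -0.45 in J2), and ORC6 had 25 and 29 J2 reads (0.76, -0.06 to 1.60). Under its label ORC6 was called higher in J2 with 53 and 73 reads (1.01, 0.48 to 1.55), 42.9% of them on its own strand.

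Among the licensing and activation factors, MCM10, which helps to start the helicase, fell in J2 from 310 to 106 reads, just past the 2-fold threshold of CPM (log2 ratio with the pseudocount -0.996, -1.33 to -0.68), and had 201 and 108 in Input (-0.50). CDC6 was not called in either table (-0.22 and -0.34). Single regions held 63.7% of the Input reads and 55.7% of the J2 reads of CDC6. For CDT1, the other loader of MCM, there were 14 and 11 own-strand reads in Input and none in J2.

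GINS4 of the GINS complex fell in J2 from 169 to 51 reads (-1.17, -1.66 to -0.72) and had 25 and 24 in Input, below the minimum. GINS1 had 208 and 112 reads in Input (-0.49) and 642 and 248 in J2 (-0.82), and GINS2 had 61 and 39 in Input (-0.24) and 56 and 21 in J2 (-0.85), so that neither was called. Labelled GINS2 reads fell in J2 from 2264 to 706 (-1.13), but only 2.59% of those lay on its own strand. C16orf74 and GSE1, its neighbours, held 823 and 212 and 509 and 242 of the J2 reads under its name.

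The RFC clamp loader and PCNA had calls in J2 only. RFC2 fell in J2 from 109 to 28 reads (-1.39, -2.07 to -0.80), with 36 and 3 in Input. RFC4 fell in J2 from 182 to 35 (-1.81, -2.40 to -1.30), with 40 and 16 in Input (-0.90). RFC3 had larger counts and no call, with 846 and 430 reads in Input (-0.58) and 1665 and 628 in J2 (-0.86). RFC1 and RFC5 lay between -0.32 and 0.14 in both tables. PCNA, the sliding clamp, had 89 and 54 reads in Input (-0.32, -0.84 to 0.18) and 428 and 268 in J2 (-0.13, -0.35 to 0.10). Of its J2 reads 79.9% came from 1 region of 83 bp at an annotated promoter (chr20:5118677-5118759), inside the gene body (chr20:5114953-5126626). Of its 696 own-strand J2 reads 623 were not labelled PCNA, and so neither was this region. The part of PCNA transcripts in the region was not tested.

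Among the polymerases, both listed subunits of polymerase epsilon, which copies the leading strand, fell in both tables, while the small subunit POLE3, of the further genes below, was not called (0.42 in Input, 0.27 in J2) and POLE4 was below the minimum on its own strand. POLE, the catalytic subunit (chr12:132623753-132687365, minus strand), had 480 and 130 reads in Input (-1.48, -1.78 to -1.21) and 1169 and 180 in J2 (-2.15, -2.39 to -1.92), of which 240 and 26 lay in 1 region with a Tigger1 DNA transposon (chr12:132628621-132630717). POLE2 (chr14:49643555-49688422, minus strand) had 192 and 51 in Input (-1.51) and 387 and 112 in J2 (-1.24). POLA1, the catalytic subunit of polymerase alpha, fell in J2 from 1127 to 321 reads (-1.26, -1.45 to -1.08) and had 1085 and 417 in Input, just under 2-fold at -0.98. PRIM2, the large primase subunit, fell in J2 from 1043 to 352 (-1.02, -1.20 to -0.84) with 531 and 235 in Input (-0.78). POLD1, the catalytic subunit of polymerase delta, had 121 and 81 reads in Input (-0.18) and 370 and 129 in J2 (-0.97) and was not called. POLD3, an accessory subunit of polymerase delta, stood on the other side of 0 in both tables, with 269 and 270 reads in Input (0.40, 0.15 to 0.65) and 388 and 399 in J2 (0.59, 0.38 to 0.79). PRIM1, the small primase subunit, had 36 and 0 Input reads, at least 9.11-fold lower against that floor, but stayed below the minimum.

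LIG1, which seals Okazaki fragments (chr19:48115445-48170603, minus strand), fell from 239 to 63 reads in Input (-1.52, -1.95 to -1.12) and from 188 to 48 in J2 (-1.41, -1.91 to -0.96). FEN1, which trims them, had 43 and 26 Input reads on its own strand (-0.32). Of the RPA genes, whose products cover single-stranded DNA, RPA1 fell in Input from 264 to 38 reads (-2.38, -2.93 to -1.90) and had 700 and 249 in J2 (-0.94, not called). RPA2 (chr1:27891524-27914746, minus strand) fell in both, from 53 to 17 reads in Input (-1.21) and from 98 to 29 in J2 (-1.19), with wide intervals of -2.12 to -0.43 and -1.86 to -0.60.

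RRM1, the large subunit of ribonucleotide reductase (chr11:4094707-4138876, plus strand), fell from 133 to 45 reads in Input (-1.16, -1.69 to -0.67) and from 242 to 74 in J2 (-1.15, -1.56 to -0.78). TYMS, which makes thymidylate, had 69 and 61 reads in Input (0.22) and 44 and 52 in J2 (0.79, 0.18 to 1.40) and was not called. RRM2 could not be measured on its own strand, where it had 0 and 12 Input and 1 and 2 J2 reads. Its labelled reads fell in both tables, with 97 and 33 reads in Input (-1.14) and 311 and 77 in J2 (-1.46).

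Of the cyclin E genes, only CCNE2 could be measured on its own strand. CCNE2 had 23 and 77 own-strand reads in Input and was the 1 gene that rose there (2.12, 1.45 to 2.88), with 35.0% of the reads in 1 region that held 1 read in DMSO and 34 in MPS1i. In J2 the reads of CCNE2 were 791 and 583 (0.11, -0.05 to 0.26), and 93.8% of them came from 1 region of 373 bp. Under its label CCNE2 had 408 and 220 Input reads (-0.49), of which 204 and 27 lay on INTS8, the gene next to it. CCNE1 rose in both tables by the nearest-gene label, with 36 and 56 reads in Input (1.03, 0.41 to 1.68) and 53 and 80 in J2 (1.14, 0.62 to 1.67), but 20.7% and 16.5% of those lay on its own strand, where it had 4 and 15 Input and 11 and 11 J2 reads.

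CHAF1A, a subunit of the factor that puts histones on new DNA, fell in J2 from 627 to 155 reads (-1.46, -1.73 to -1.21) and had 179 and 86 in Input (-0.66). CHAF1B was not called (-0.88 in Input, -0.73 in J2). All 3 fork protection genes fell in J2. Besides WDHD1 these were TIMELESS, with 376 and 78 reads (-1.71, -2.09 to -1.37), and CLSPN, which carries the checkpoint signal from stalled forks, with 212 and 61 (-1.24, -1.68 to -0.83). In Input CLSPN (chr1:35720218-35769967, minus strand) fell from 110 to 36 reads (-1.20, -1.80 to -0.66), and TIMELESS had 137 and 56 (-0.89).

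The change of J2 over Input with MPS1i was then compared as a ratio of the J2 and Input ratios, for genes with at least 50 J2 and 20 Input counts. On their own strand 5 of 40 genes rose and 3 fell, where 9.05% of all genes rose and 7.78% fell. Both counts were near the shares of all genes, and the median of the replication genes was -0.02. The genes that rose were MCM3 (2.26, 1.54 to 2.98), CDC45 (2.25, 1.02 to 3.48), MCM6 (1.77, 0.99 to 2.54), RPA1 (1.44, 0.91 to 1.97) and ORC5 (1.02, 0.61 to 1.43). Each of these had fallen in Input. An Input ratio below the J2 ratio follows from such a call, because the change is their difference in log2. In J2, MCM6 and CDC45 fell, RPA1 and ORC5 were not called, and MCM3 stood at 0.57. The genes that fell were CCNE2 (-2.01, -2.69 to -1.33), GINS4 (-1.51, -2.43 to -0.59) and MCM5 (-1.48, -1.89 to -1.07). Without the most-read region of each pair, CCNE2 kept 22 and 43 Input and 34 and 51 J2 reads. MCM5 then kept 223 and 55 Input and 383 and 62 J2 reads. On those reads neither CCNE2 nor MCM5 reached a 2-fold change, while GINS4 still did, with 13 and 24 Input and 140 and 36 J2 reads. By the nearest-gene label MCM3, ORC5 and GINS3 rose and 0 of 45 fell, where 8.75% and 6.16% of all genes did. GINS3 had 35 and 7 Input and 33 and 29 J2 reads there (2.21, 0.87 to 3.55).

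Recovery in J2 was also compared with Input within each treatment. The median log2 ratio of J2 to Input CPM was 0.33 in DMSO over 41 genes and 0.18 in MPS1i over 36 genes, beside 0.35 and 0.30 over all measured genes. These values rest on all regions of 2 tables that cover different sequence, and without mitochondrial reads in the totals the medians were -0.07 and -0.13. The genes differed widely among themselves. In DMSO the ratio was 4.46 for CCNE2 (3.89 to 5.15), 2.50 for MCM4, 2.11 for GINS4, 1.64 for PCNA and 1.53 for ORC1. For CCNE2, MCM4, PCNA and ORC1 a single region held most of the J2 reads, as given above. At the other end FEN1 was at -2.81, RFC1 at -2.36, MCM3 at -2.17 and MCM2 at -1.89, and in RFC1 1 region of 145 bp in intron 6 held 73.1% of the Input reads, with 632 and 582. Per kilobase of gene, the DMSO Input level was highest for MCM5 (2.42 CPM per kb), CDC6 (2.29) and RFC1 (1.80), and the DMSO J2 level for CCNE2 (4.78), PCNA (3.74) and MCM4 (3.27).

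The place of the reads differed between the treatments. Under the names of the replication genes, the share of J2 reads on the gene's own strand was 49.6% in DMSO (Wilson 95% interval 49.0 to 50.2%) and 39.3% in MPS1i (38.5 to 40.2%), and in Input it was 54.6% and 49.8%. Scaled to the library, the own-strand J2 reads had a log2 ratio of -0.87 (-0.91 to -0.82), the reads opposite to the gene -0.04 (-0.12 to 0.05) and those outside it -0.33 (-0.37 to -0.28). Over all labelled genes the same values were -0.26, 0.39 and 0.15, so that own-strand reads were below the others there too. In Input the replication genes had -0.63 on their own strand, -0.43 opposite and -0.33 outside, and all labelled genes had -0.11, 0.19 and 0.21. The own-strand share over all labelled genes was likewise lower with MPS1i, at 43.1% and 36.1% in J2 and 41.5% and 36.6% in Input.

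**Figure D4:**
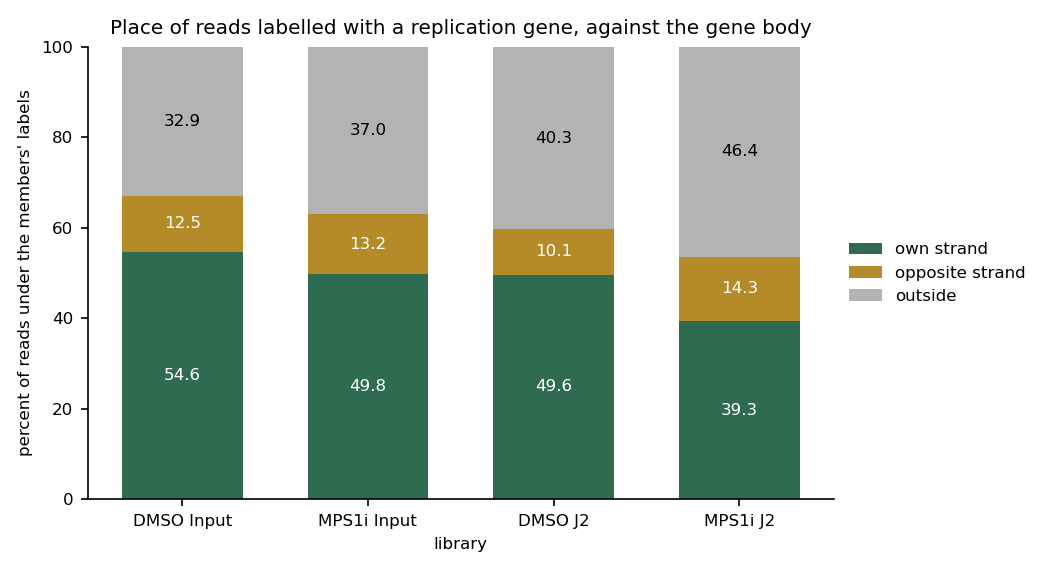
Percent of the reads labelled with a replication gene that lay on the gene's own strand (green), on the opposite strand (gold) or outside its annotated body (grey), in each of the 4 libraries. The own-strand share was 49.6% in DMSO J2 and 39.3% in MPS1i J2.

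Both repeat-bearing and repeat-free reads of these genes were lower with MPS1i. In J2 the own-strand reads in regions with an Alu, the commonest source of double-stranded RNA in human introns, had a log2 ratio of -1.08 (4312 and 1397 reads), those with an L1 and no Alu -1.22 (1353 and 398), and those with no repeat -0.77 (11118 and 4448). The Alu share of own-strand J2 reads was 22.4% (21.8 to 23.0%) in DMSO and 20.04% (19.1 to 21.0%) in MPS1i. Over all genes it was 20.1% and 17.8%. The J2 log2 ratios over all genes were -0.43 with an Alu, -0.24 with an L1 and no Alu and -0.21 with no repeat. In Input the Alu share of the replication genes was 9.64% and 7.76%, while over all genes it was 12.9% and 13.7%. Repeat-free Input reads had a log2 ratio of -0.61 in the replication genes and -0.18 over all genes.

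For some genes the labelled reads lay largely elsewhere. FEN1 held 2.38% of its labelled J2 reads on its own strand, and 1 region at the end of FADS1 held 60.5% of them, with 1092 and 356 reads. RPA3 and RFC5 held 0.0761% and 6.79%. The opposite also occurred: POLA1 had 18 and 23 labelled J2 reads but 1127 and 321 on its own strand, and PRIM2 84 and 53 but 1043 and 352. Labels also took in the other strand: the most-read Input region under CDC45 spanned 40671 bp opposite to the gene, with 33 and 17 reads. POLA2 had no read that overlapped it alone on its strand, in any library. Under the label of MCM10 the J2 ratio was 0.69 and on its own strand -0.996. The signs of the 2 sums differed for MCM10, RFC5, PCNA, POLD3 and CCNE2 in both tables, for RFC4 and PRIM2 in Input and for ORC4 and RFC1 in J2.

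**Figure D5:**
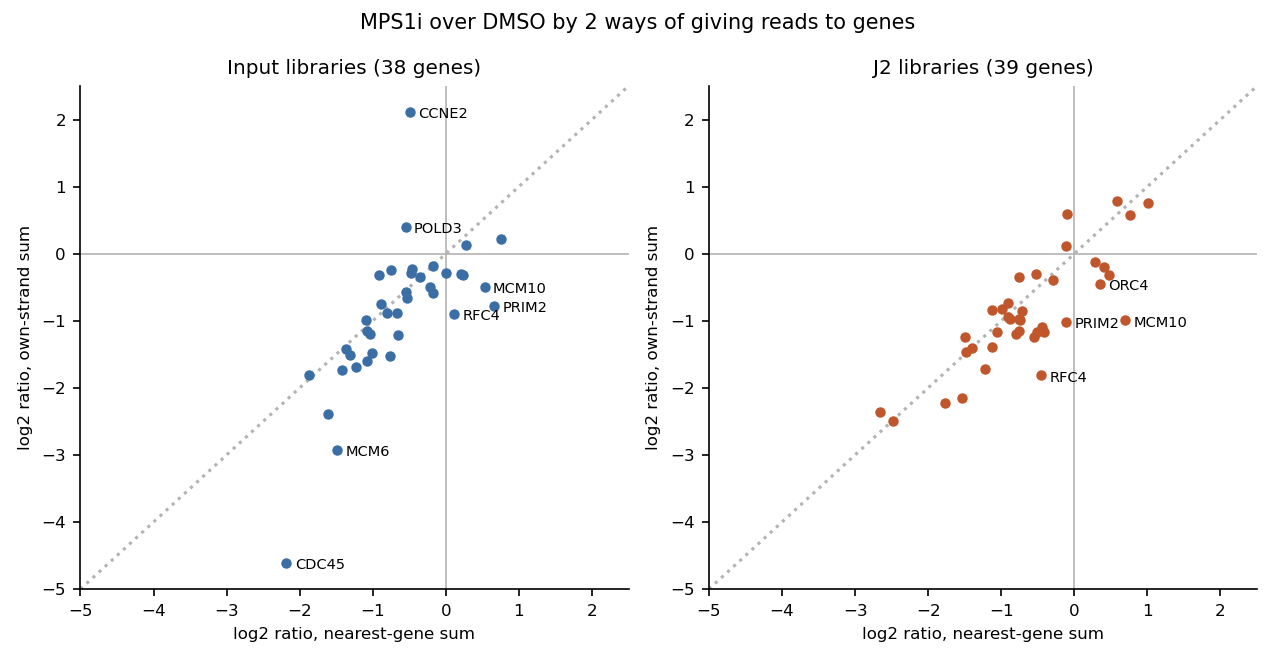
Log2 ratio of MPS1i over DMSO by the nearest-gene label (horizontal) and by own-strand reads (vertical), for 38 genes in Input and 39 in J2, 1 point per gene. Points on the dotted line agree; names mark genes whose values differ by more than 0.8, and most of these lie below the line.

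When each region counted as at most 1 read per library, 14 of the 23 genes still measurable on their own strand fell in Input (background 20.8%) and 8 of 26 fell in J2 (background 15.3%). Of the 14 genes lower in Input, 10 stayed lower in each own-strand alternative (CDC45, LIG1, MCM6, ORC1, ORC5, POLE, POLE2, RPA1, RRM1 and WDHD1), and of the 20 lower in J2, 7 did (CDC45, CHAF1A, LIG1, MCM5, POLA1, POLE2 and WDHD1). The share of all called genes that stayed lower in each alternative is not given here. These counts therefore do not set the replication genes apart. The part that the smaller number of Input regions with reads in MPS1i has in the Input calls was not tested.

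Other genes of the pathway were listed in 5 groups. Their counts stand beside the own-strand shares over all genes, 16.8% lower and 12.8% higher in Input and 19.6% lower and 15.9% higher in J2. In the group of origin licensing and firing genes, 1 of 11 fell in J2 on its own strand, a share below that of all genes, and 3 of 12 in Input. TICRR, which helps to load CDC45, fell in both, with 196 and 23 reads in Input (-2.67) and 266 and 72 in J2 (-1.33, -1.73 to -0.96). Among fork and lagging strand genes, 6 of 12 fell in J2 and 2 of 11 in Input, the latter near the share of all genes, and 1 rose in Input. These included CHTF8 with 329 and 58 J2 reads (-1.95), TIPIN, the partner of TIMELESS, with 292 and 57 (-1.80) and ATAD5, which unloads PCNA, with 684 and 175 (-1.42).

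In nucleotide supply 5 of 11 fell and 2 rose in J2, and 6 of 11 fell and 1 rose in Input. SAMHD1, which breaks down deoxynucleotides, rose on its own strand in J2 from 183 to 522 reads (2.06, 1.81 to 2.31) and in Input from 27 to 84 (2.02), while its labelled J2 reads were 1086 and 397 (-0.90). The folate enzymes MTHFD1 (392 and 61 reads, -2.13) and SHMT1 (111 and 22, -1.76) fell in J2. In chromatin assembly and fork signalling 6 of 15 fell and 0 rose in J2, and 6 of 14 fell and 0 rose in Input. UHRF1, which reads half-methylated DNA behind the fork, had 583 and 54 J2 reads (-2.87, -3.31 to -2.48), HAT1 368 and 76 (-1.72) and ATR, the kinase of stalled forks, 1615 and 444 (-1.31).

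In the group of E2F, RB and S phase cyclins 7 of 24 fell and 4 rose in J2, and 8 of 21 fell and 1 rose in Input. The J2 share that rose was near that of all genes. CDKN1A, which encodes the CDK inhibitor p21, was the gene that rose in Input, from 35 to 126 reads (2.23, 1.70 to 2.83), and it rose in J2 from 11 to 64 (3.04, 2.15 to 4.16). ZNF367 (162 and 9 J2 reads, -3.55) and RBL1, an RB family member (1524 and 207, -2.33), fell in J2. Of the E2F genes themselves, E2F1 fell in Input from 154 to 45 reads (-1.37), and E2F2 fell in Input from 96 to 17 (-2.07) and in J2 from 205 to 33 (-2.07), while under its label E2F2 had 17 and 26 Input reads. E2F3, E2F5, E2F6 and E2F7 were not called in Input, E2F4 and E2F8 were below the minimum there, and E2F6 (44 and 62 reads, 1.04) and E2F7 (78 and 121, 1.18) rose in J2. Summed by label, the genes lower in J2 were 2 of 12, 5 of 18, 2 of 11, 2 of 15 and 6 of 24 in the 5 groups and those higher were 2, 1, 2, 3 and 3, beside 11.9% lower and 25.5% higher over all genes. Genes with the largest J2 ratios by label included RRM2B, a p53-induced subunit of ribonucleotide reductase, with 370 and 823 labelled reads (1.70) and 108 and 216 on its own strand (1.55), and LIN9, a subunit of the DREAM complex, with 616 and 138 (-1.61) and 954 and 211 (-1.63). For others the sums differed. MCM9 had 162 and 302 labelled J2 reads (1.45) and 388 and 155 on its own strand (-0.77), and DCTD had 949 and 1659 (1.35) and 330 and 144 (-0.65). DBF4B had 245 and 65 labelled reads (-1.36) and 594 and 231 on its own strand (-0.81). RTEL1 (107 and 252 labelled reads, 1.78), RNASEH2A (112 and 33, -1.20) and ETAA1 (105 and 230, 1.68) were called by label only. ATRIP was called in opposite directions by the 2 sums, with 100 and 33 J2 reads on its own strand (-1.04) and 94 and 246 under its label (1.93).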

How the data were processed

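Strand-aware total RNA libraries (SMARTer stranded kit, per the labels' protocols) were made from 4 samples, 1 per group. The deposited values were raw read counts per region, in 1 table for Input and 1 for J2, with HOMER annotation and a nearest gene name per the file headers. STAR, featureCounts, HOMER, cutadapt, Trimmomatic and Trim Galore are named, with the build GRCh38 (hg38), per the submitters' processing notes; how regions were called and how reads with several places or duplicates were treated is not given in the sources used here.

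Counts were summed per gene by label, as planned, and by own strand, against GENCODE release 29 (bedtools 2.31.1), a sum added after the data were seen. Summed counts were 6381610 and 4844956 in Input and 9793355 and 6697479 in J2 (DMSO, MPS1i); rows without a gene name held 23.6%, 19.7%, 0.650% and 0.883% of them and stayed out of the gene sums. Ratios of CPM carry exact (Clopper-Pearson) 95% intervals, and the change of J2 over Input a delta-method interval. Intervals and floors (3 counts per library) cover counting error only. With 1 library per group there was no test across replicates.

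The members, the other gene lists and the markers were chosen with earlier results of these data known. Every member was accounted for, those called were given with their counts, and from each other list the 3 genes with the largest J2 ratio among those called were named; POLE3, POLE4 and the E2F genes were picked after their values were seen. Scaling factors came from edgeR 4.0.16 and DESeq2 1.42.0 (R 4.3.3), used for size factors only. Alternatives covered scaling, count minimum, fold threshold, Intergenic, repeat-bearing and most-read regions, strand, and 1 read per region. The scripts (Python 3.11.15, pandas 2.3.3, scipy 1.17.1) were tested on simulated counts.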

Additional observations from a re-analysis of the deposited data

How the results depend on the processing

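No paired analysis was possible because each group held 1 library, and for the same reason no replicate could be left out. The medians of the replication genes in Input and J2 stayed below 0 under every alternative run. That sign alone does not set them apart, since the own-strand medians of all genes were -0.22 in Input and -0.19 in J2 as reported. By label the medians of all genes were 0.08 and 0.16, and DESeq2 factors moved them by -0.30 and -0.43. By label, the 1 gene higher in Input became 0 without mitochondrial reads in the totals, with TMM, DESeq2 or upper quartile factors, at a minimum of 100 counts, without Intergenic regions, at 1 read per region, without repeat-bearing regions, on the strand of the gene only and after thinning, and 3 at a 1.5-fold threshold. The 14 lower in Input were 22 at 1.5-fold and 4 at 1 read per region, where MCM3 turned to 0.19. Over all genes, 1540 of 16980 were lower in Input as reported and 839 of 8609 at 1 read per region, where fewer members reached the minimum too. The 2 higher in J2 were 0 with TMM or DESeq2 factors and at 1 read per region, 1 with upper quartile factors, without Intergenic or without repeat-bearing regions, and 4 at 1.5-fold; without the most-read region they were 3. The 12 lower in J2 were 23 with TMM factors (median -1.08), 24 with DESeq2 factors (median -1.15), 23 at 1.5-fold, 6 at 1 read per region and 19 without repeats, and RRM2 turned to 0.080 on the strand of the gene only. Over all genes, lower J2 calls by label also moved, from 2166 of 18219 to 3989 with TMM factors and 4358 with DESeq2 factors. At 1 read per region they were 981 of 12591, with fewer members measured as well. The shares of all genes at 1.5-fold and without repeats are not given here. For the change of J2 over Input by label, 0 lower became 1 with TMM factors, 2 with DESeq2 factors, 7 at 1.5-fold, 2 without Intergenic regions, 2 without the most-read region, 3 without repeats and 2 on the gene's strand, and 3 higher became 5 without a count minimum, at 1.5-fold and without the most-read region, and 1 at 1 read per region. RRM2 turned to 2.46 without Intergenic regions and CDC45 to 1.89 without its most-read region. On the own strand, at 1 read per region 0 rose in Input (1 as reported) and 8 fell in J2 (20 as reported), and 2 rose and 0 fell in the change (5 and 3 as reported); fewer genes reach the minimum there. In J2, 1 rose without the most-read region and 1 without repeats (0 as reported), and 6 fell in the change without repeats. The median of J2 over Input was -0.077 (DMSO) and -0.12 (MPS1i) by label and -0.068 and -0.13 on the own strand without mitochondrial reads in the totals, and 0.11 over 13 genes and -0.64 over 6 genes in regions matched between the tables. The cause of these moves was not tested. Of all calls of the change on the own strand, 53.8% were higher as scaled here and 39.9% with TMM factors, and of all Input calls there 43.4% and, with upper quartile factors, 54.4%. By label the Input share was 69.1%, 50.1% with TMM and 46.6% with DESeq2 factors, and that of the change 58.7%, 46.9% and 44.6%.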
